A study of Rattus norvegicus with 421 samples.

Results

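The tobacco-specific nitrosamine NNK (nicotine-derived nitrosamine ketone, a methylating and pyridyloxobutylating carcinogen of tobacco smoke) was given to male Wistar Hanover rats by daily gavage at 20 mg/kg, and livers were profiled on Affymetrix RAE230A arrays. The arrays were chosen by their label: every array of NNK-treated animals was taken, 3 at day 7 and 3 at day 14, which makes 6 arrays beside 415 others in the series. They were set against the arrays of the same day from rats given the vehicle carboxymethylcellulose, 6 at each day, which the labels name as control group. Animals of all these groups were of the same strain and 8 to 10 weeks old. In the labels, 5 rats were assigned to a dose group, of which 3 were chosen on histopathology for profiling, so the values describe chosen animals. Only the days 7 and 14 of NNK were analysed here. A pair of other nitrosamines of the series served for comparison, NPip (N-nitrosopiperidine, a cyclic nitrosamine) at 20 mg/kg with its own carboxymethylcellulose arrays (3 per group), and NNM (N-nitrosomorpholine) at 3.5 mg/kg at day 7 (3 arrays), which shares the vehicle arrays of NNK. Whole liver was measured, so fewer cells of a type and less RNA per cell cannot be told apart.

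NNK is not reactive by itself. Cytochrome P450 enzymes of the liver and lung hydroxylate the carbon atoms next to its nitrosamine group, and the products attach methyl groups or a pyridyloxobutyl group to DNA. Carbonyl reductases turn NNK into its alcohol NNAL, which is in part cleared as a glucuronide. Damaged DNA activates the transcription factor p53, whose targets include the cell cycle inhibitor Cdkn1a (p21) and Mdm2, the ubiquitin ligase that in turn degrades p53. O-methylated guanine is repaired by the methyltransferase Mgmt in a single step that uses up the protein.

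Values are log2 levels of the robust multi-chip average, so a difference of 1 is a doubling. Changes are NNK minus vehicle of the same day ± the standard error (SE) of a linear model over all arrays of the series (limma). A change of at least 1.5-fold whose adjusted p (Benjamini-Hochberg, over all probe sets) lay below 0.05 is named called here. Levels of different genes are not set against each other, since probe sets differ in response. Several genes named below (Gsta3, Gstm3, Ces2c, Cyp2c12, Akr1c1, Sult2a6, Amy2a3) have near-identical family members, whose transcripts a probe set may also take up.

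Some arrays stood apart. Array 1 of the day 14 NNK group carried transcripts of the exocrine pancreas. Over the 27 measured exocrine pancreas genes its mean level was 8.82, against 6.55 to 6.60 on the 5 other NNK arrays and 6.47 to 6.68 on the 12 vehicle arrays, and 4 arrays of the whole series exceeded a mean of 8. The pancreatic amylase Amy2a3 had a level of 10.76 on this array, against 4.36 to 4.59 on all 17 others. The hormone genes of the endocrine pancreas were not raised there (all 3 day 14 NNK arrays 6.11 to 6.18, vehicle 5.98 to 6.24), nor were the liver's own genes low (hepatocyte identity list 11.39 to 11.51 on NNK arrays and 11.44 to 11.62 on vehicle arrays at day 14). The main counts at day 14, and the calls that were lost without this array, are therefore given beside the values with it.

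Many vehicle arrays also lay in pairs. Arrays 1 and 2, 3 and 4, and 5 and 6 of a vehicle group of 6 were compared over 9394 probe sets with a mean above 7. In 10 of 12 such neighbour pairs over the 4 vehicle groups of 6 in the series, the SD of the difference was 0.130 to 0.165, below the lowest of 387 pairs of arrays in the 129 groups of 3 (0.168, median 0.230). Both exceptions were in the vehicle groups of NNK. Arrays 1 and 2 of day 14 had an SD of 0.250, wider than arrays 1 and 3 (0.186), and arrays 3 and 4 of day 7 had 0.199. Whether 2 arrays of a pair came from 1 animal is not given by the labels. In the paper, control groups were as large as the treated groups. The main SE and p-values treat the 6 vehicle arrays of a day as separate. Each main count is therefore also given with all neighbour pairs averaged, the exceptions included, which leaves 3 vehicle values per day. The pairing can be seen in the plot of gene levels, where the vehicle arrays of day 7 fall into twos for Aldh1a1, Cdkn1a and Gsta3.

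**Figure D1:**
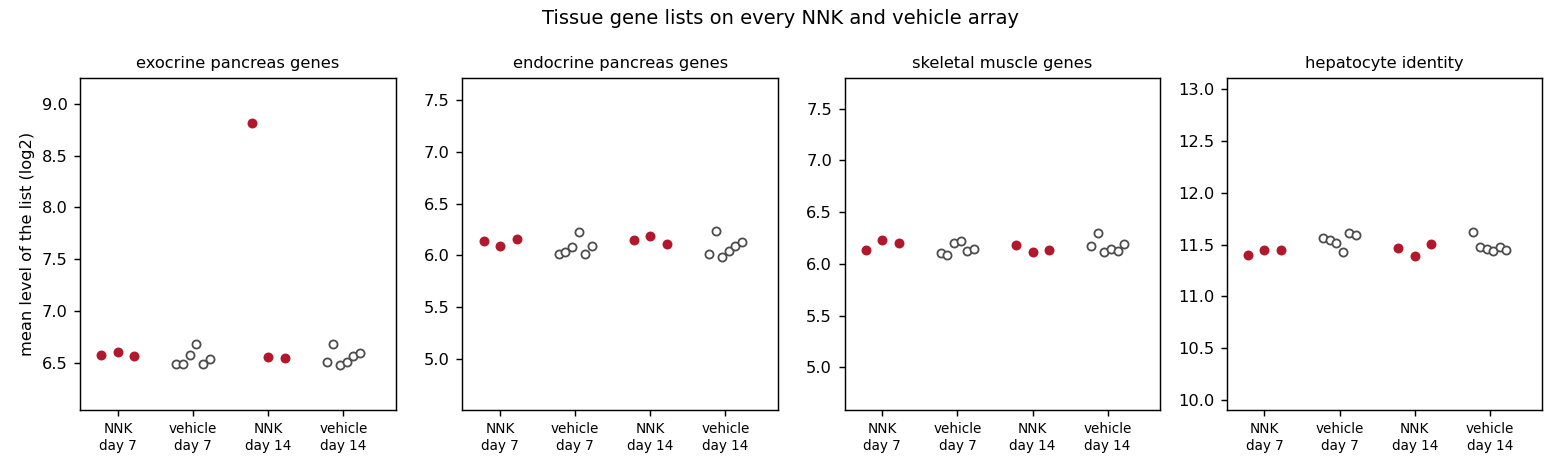
Mean level (log2) of 4 tissue gene lists on each array, with NNK arrays as filled red points and vehicle arrays as open points, for days 7 and 14. Array 1 of NNK day 14 stands at 8.82 for the exocrine pancreas genes, all other arrays at 6.47 to 6.68, while the endocrine pancreas, skeletal muscle and hepatocyte lists show no such array.

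At day 7, NNK livers had higher levels of 6 of 17 p53 targets, among them the DNA repair gene Mgmt, and of the aldehyde dehydrogenase Aldh1a1, the carboxylesterase Ces2c and the epoxide hydrolase Ephx1, and lower levels of the methyltransferase Inmt and the aminotransferase Oat. Of 15866 probe sets 65 were called (0.41%), 40 higher and 25 lower. Counted as genes, 47 were called (0.451% of those measured), 28 higher (0.269%) and 19 lower (0.182%). With the vehicle pairs averaged, 20 of these genes stayed higher and 5 stayed lower. Without array 1 of the day 7 NNK group 33 probe sets were called.

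At day 14 more genes were called, and of the 47 genes called at day 7, 27 changed more at day 14. Of the probe sets 185 were called (1.17%), 129 higher and 56 lower, or 133 genes (1.28%), 93 higher (0.893%) and 40 lower (0.384%). With the vehicle pairs averaged the counts were 85 higher and 28 lower genes, all among the main calls. Without the array that carried pancreas transcripts 67 genes were higher and 15 lower, and of the main calls 59 higher and 14 lower genes remained. With both changes made together, 57 genes were higher and 9 lower. Of the 93 higher genes at day 14, 15 belonged to the exocrine pancreas list, and none of that list was called without that array.

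NNK livers of both days shared a core of changes. Of the 47 genes called at day 7, 30 were also called at day 14 in the same direction (24 higher and 6 lower), which is 63.8% of the genes of day 7 and 22.6% of those of day 14. With the vehicle pairs averaged, most of these shared falls lost their day 7 call. They were Akr1c1, Dpyd, Nr3c1 and Slc16a10 (limma adjusted p = 0.113, 0.107, 0.0868 and 0.152), while Inmt and Oat kept theirs. The shared rises Ccnd1 and Dcn also lost their day 7 call (adjusted p = 0.106 and 0.218). All 47 had the same sign at day 14, and 121 of the 133 genes of day 14 had the same sign at day 7. Among the 30 shared genes, 27 had the larger change at day 14, and no other of the 47 genes of day 7 did. The median size of change over the 133 genes of day 14 was 0.84 at that day and 0.38 at day 7. These genes were picked by their day 14 values and include the exocrine pancreas genes, so a larger day 14 median follows from the choice. Groups did not overlap for 43 of the 47 and 109 of the 133 called genes, against 8.61% and 12.1% of all genes at day 7 and day 14. Called genes were picked by the difference between these same groups, so their higher share also follows from the choice.

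**Figure D2:**
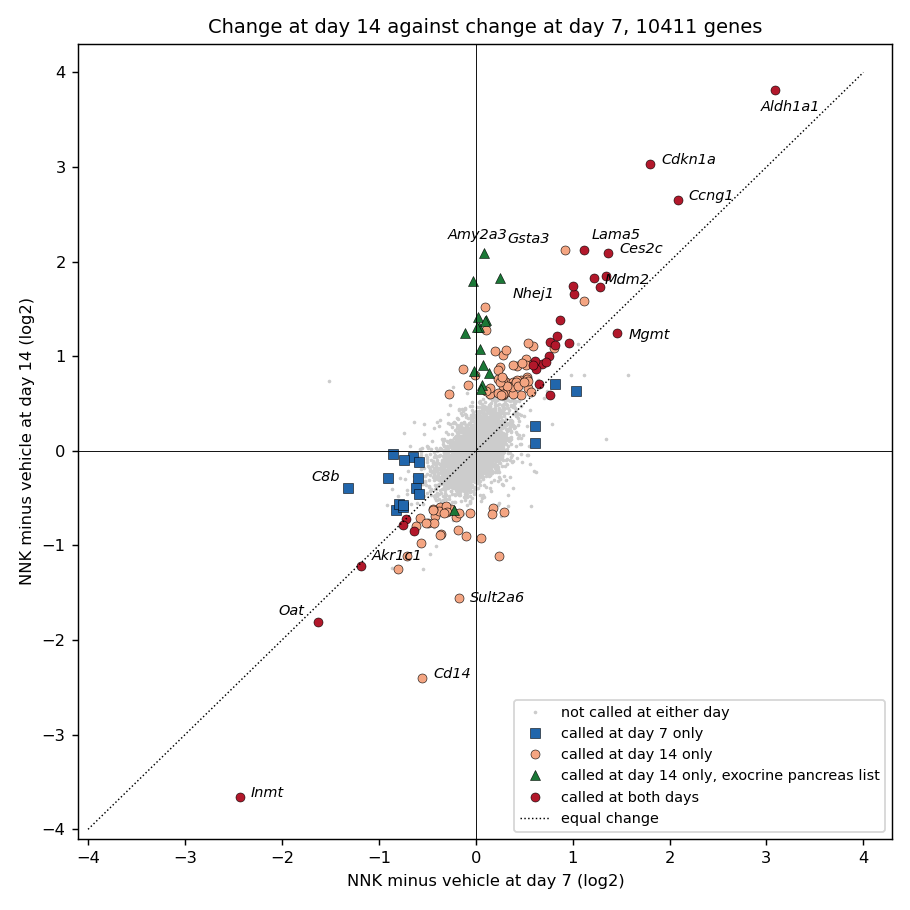
Change of each measured gene (NNK minus vehicle, log2) at day 7 on the horizontal and day 14 on the vertical axis, with called genes coloured by the day of the call. Of the 30 genes called at both days 27 changed more at day 14, and the exocrine pancreas genes form a column near 0 at day 7 with values at day 14 that come from 1 array.

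The cyclin-dependent kinase inhibitor Cdkn1a had levels of 11.36, 10.77 and 10.88 in NNK livers at day 7, against 8.81 to 9.87 in vehicle livers (median 8.96). At day 14 the NNK levels were 12.27, 11.32 and 11.57, against 8.19 to 9.06 in vehicle livers (median 8.66). No NNK array overlapped a vehicle array on either day. Cdkn1a rose by 1.80 ± 0.27 at day 7 (3.48-fold, limma adjusted p = 1.43e-07) and by 3.03 ± 0.27 at day 14 (8.18-fold, adjusted p = 3.46e-21). A dimmer probe set of Cdkn1a gave 0.59 ± 0.32 at day 7, which was not called, and 2.03 ± 0.32 at day 14.

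Ccng1, cyclin G1, a p53 target that takes part in the control of Mdm2, stood apart from vehicle on every array. Its levels were 10.44, 10.60 and 10.07 in NNK livers at day 7 against 8.19 to 8.39 in vehicle livers (median 8.28), and 11.22, 10.53 and 11.01 at day 14 against 7.81 to 8.51 (median 8.34). The change was 2.09 ± 0.15 at day 7 (adjusted p = 4.94e-30) and 2.66 ± 0.15 at day 14 (adjusted p = 1.02e-43). All NNK arrays lay more than 1.5-fold above the highest vehicle array of their day.

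Mdm2 levels were 8.16, 8.82 and 8.24 in NNK livers at day 7, against 7.08 to 7.25 in vehicle livers (median 7.20), and 8.95, 8.68 and 9.15 at day 14, against 6.79 to 7.31 (median 7.10). Mdm2 rose by 1.22 ± 0.16 at day 7 and 1.82 ± 0.16 at day 14, with no overlap of the groups. A second, dimmer probe set of Mdm2 changed by 0.54 and 0.55 and stayed under 1.5-fold.

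Of the 17 measured genes on a list of p53 targets, 6 were higher and none lower at day 7, and 5 higher and none lower at day 14. The share called higher over all genes was 0.269% and 0.893%. The median change of the list was 0.23 and 0.39, against 0.01 and 0.00 over all genes. Beside Cdkn1a, Ccng1 and Mdm2, the list's rises were Mgmt, Phlda3 (an inhibitor of Akt signalling), with 0.96 ± 0.19 at day 7 and 1.14 ± 0.19 at day 14, and, at day 7 only, the polo-like kinase Plk2 with 0.81 ± 0.24 (0.71 ± 0.24, adjusted p = 0.0542, at day 14). The other 11 members were not called at either day. Among them the DNA damage sensor Ddb2 changed by -0.08 and -0.33, Xpc by -0.51 and -0.36, the growth arrest gene Gadd45a by 0.30 and 0.49, and the death receptor Fas by 0.11 and 0.05. With the vehicle pairs averaged 5 members were called at each day, and 5 at day 14 without the array that carried pancreas transcripts. Plk2 lost its day 7 call with the pairs averaged (adjusted p = 0.193). Its groups overlapped at day 7, with the lowest NNK array at 9.90 and the highest vehicle array at 10.17.

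The upstream sequences of the 3 leading p53 targets are shown because these genes moved together. Each is the 250 bases before the gene's start in RefSeq (build GRCr8), 5′ to 3′ on the gene's strand. Capitals mark matches to the p53 half-site (searched on both strands) and to the antioxidant response core TGACNNNGC (both strands). Cdkn1a lies at chr20:7150682-7150931 on the + strand, Ccng1 at chr10:25684877-25685126 on the - strand and Mdm2 at chr7:55200792-55201041 on the - strand.
Cdkn1a: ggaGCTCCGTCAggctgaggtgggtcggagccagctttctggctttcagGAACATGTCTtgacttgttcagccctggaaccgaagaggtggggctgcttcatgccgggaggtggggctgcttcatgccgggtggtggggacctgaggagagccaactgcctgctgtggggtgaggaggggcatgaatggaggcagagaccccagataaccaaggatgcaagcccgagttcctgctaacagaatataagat
Ccng1: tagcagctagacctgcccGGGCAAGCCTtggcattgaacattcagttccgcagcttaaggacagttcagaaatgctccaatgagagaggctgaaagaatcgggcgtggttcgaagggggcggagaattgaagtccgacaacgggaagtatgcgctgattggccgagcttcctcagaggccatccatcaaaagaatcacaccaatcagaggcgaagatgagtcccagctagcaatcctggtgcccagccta
Mdm2: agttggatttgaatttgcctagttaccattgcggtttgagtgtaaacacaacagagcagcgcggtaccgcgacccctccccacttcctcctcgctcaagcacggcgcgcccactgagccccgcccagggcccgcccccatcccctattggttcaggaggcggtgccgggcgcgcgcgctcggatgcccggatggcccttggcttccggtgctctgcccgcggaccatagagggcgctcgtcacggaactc
Cdkn1a has a half-site 201 bases before its start and an antioxidant core on the opposite strand 247 bases before it, Ccng1 a half-site 232 bases before, and Mdm2 neither in this window. Half-sites were found in 6.64% of 33469 promoters, in 7 of the 80 promoters of genes called higher at either day (8.75%) and in none of the 41 of genes called lower, where 121 of 150 called genes had a promoter sequence. The antioxidant core was found in 10.1% of all promoters, in 15 of the 80 of genes called higher (18.8%) and in 3 of the 41 of genes called lower (7.32%). Without the genes of the exocrine pancreas list, half-sites were in 5 of 69 promoters of genes called higher (7.25%) and the antioxidant core in 13 of 69 (18.8%). A match describes these letters and is not a bound site.

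Mgmt, the repair protein for O-methylated guanine, was higher in every NNK liver. Its levels were 10.09, 10.21 and 9.54 at day 7 against 8.33 to 8.61 in vehicle livers (median 8.50), and 9.41, 9.30 and 10.00 at day 14 against 7.99 to 8.48 (median 8.36). Mgmt rose by 1.46 ± 0.20 at day 7 (2.76-fold, adjusted p = 4.39e-09) and 1.24 ± 0.20 at day 14 (2.36-fold, adjusted p = 5.48e-07), and the change did not pass the test between days (-0.22 ± 0.28, adjusted p = 0.965). It was the only called gene among 33 measured genes on a DNA repair list, whose median change was 0.00 at day 7 and 0.01 at day 14. The alkyladenine glycosylase Mpg changed by -0.16 and 0.00, and DNA polymerase beta (Polb), of base excision repair, by 0.03 and 0.43 ± 0.08, under 1.5-fold though with an adjusted p of 8.05e-05 at day 14.

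Nhej1, a factor of DNA end joining that was not on that list, was called at both days. Its levels were 7.91, 7.42 and 7.35 at day 7 against 6.33 to 6.92 in vehicle livers (median 6.50), and 8.05, 8.06 and 8.40 at day 14 against 6.40 to 6.67 (median 6.47). The change was 1.01 ± 0.12 and 1.65 ± 0.12. Groups were apart on both days. Cyclin D1 (Ccnd1), which drives entry into the cell cycle, rose by 0.87 ± 0.22 at day 7 and 1.38 ± 0.22 at day 14, and lost its day 7 call with the pairs averaged (adjusted p = 0.106). None of the 23 measured genes on a mitosis list was called at either day. Of 26 genes of DNA replication only Dut, a deoxyuridine triphosphatase, was called, at day 14 (0.93 ± 0.16). Over all genes 0.451% and 1.28% were called at days 7 and 14, and at that share such lists hold few or no calls.

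**Figure D3:**
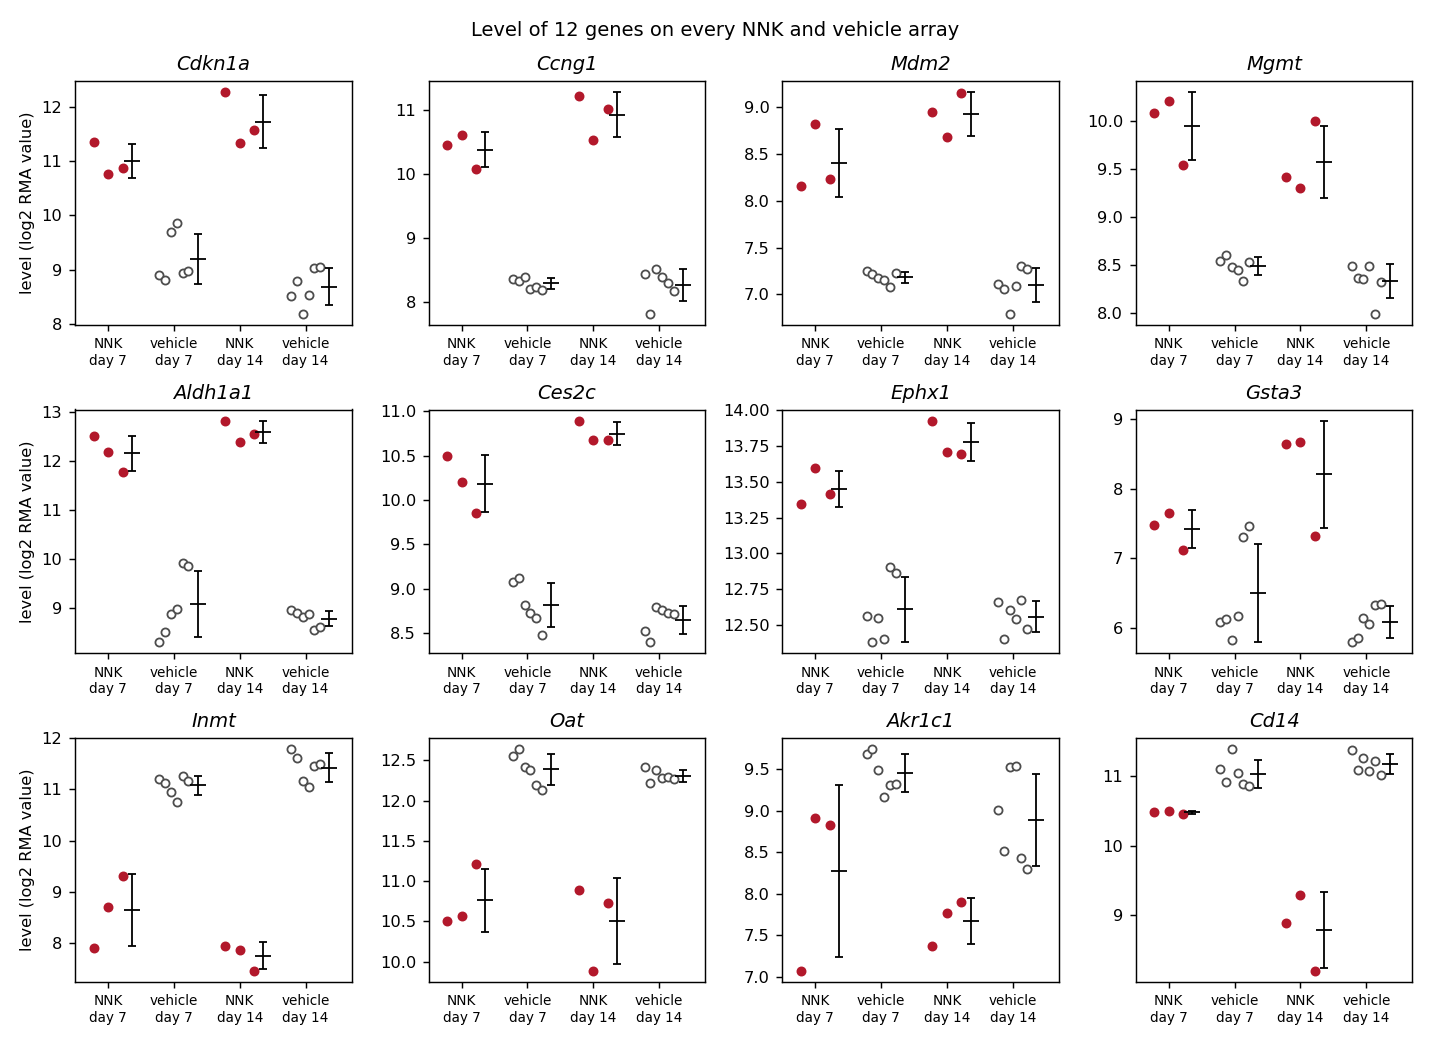
Level (log2) of 12 genes on every array, NNK filled red and vehicle open, with the group mean and SD as a black bar beside the points. The groups are apart on both days for all genes shown except Gsta3 at day 7, and Cd14 lies lower at day 14 than at day 7 in the NNK arrays.

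The aldehyde dehydrogenase Aldh1a1, which oxidises retinal and other aldehydes, had the largest rise. Its levels were 12.51, 12.18 and 11.79 in NNK livers at day 7, against 8.29 to 9.92 in vehicle livers (median 8.93), and 12.83, 12.40 and 12.56 at day 14, against 8.55 to 8.96 (median 8.83). Aldh1a1 rose by 3.09 ± 0.40 at day 7 (8.51-fold) and by 3.82 ± 0.40 at day 14 (14.1-fold). The lowest NNK array lay above the highest vehicle array by more than 1.5-fold on both days. Of the 24 measured genes of a list of aldehyde and retinoid enzymes it was the only one called.

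The carboxylesterase Ces2c had levels of 10.50, 10.20 and 9.85 at day 7 in NNK livers against 8.48 to 9.13 in vehicle livers (median 8.77), and 10.90, 10.67 and 10.67 at day 14 against 8.40 to 8.79 (median 8.72). Its change was 1.37 ± 0.20 and 2.10 ± 0.20. The groups were apart on both days. Ephx1, the microsomal epoxide hydrolase, was at 13.35, 13.59 and 13.41 at day 7 against 12.38 to 12.91 in vehicle livers (median 12.56), and at 13.93, 13.71 and 13.69 at day 14 against 12.40 to 12.67 (median 12.57). Ephx1 rose by 0.84 ± 0.14 and 1.22 ± 0.14.

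Aldh1a1, Ces2c and Ephx1 stand on a list of genes that the receptors CAR and PXR induce, of which 22 were measured. Over all genes 0.451% were called at day 7 and 1.28% at day 14. These 3 were the list's calls at day 7, all higher. At day 14 5 members were higher, with Abcc2 (1.01 ± 0.17), a transporter of conjugates into bile, and the glutathione transferase Gstm3 (0.75 ± 0.23) added, and 2 were lower, Cyp3a23-3a1 (-0.66 ± 0.14) and the uptake transporter Slco1a4 (-0.60 ± 0.19). Other P450 genes of the list were not called, with Cyp3a2 at 0.21 and -0.15 and Cyp2c6v1 at 0.22 and 0.10 at days 7 and 14, and the P450 reductase Por was at 0.13 and -0.03. The list's median change was 0.20 at day 7 and 0.05 at day 14. With the vehicle pairs averaged 3 members were higher at day 7, and 4 were higher and 1 lower at day 14. The day 14 counts were the same without the array that carried pancreas transcripts, but the lower gene was another. It was Cyp3a23-3a1 with the pairs averaged and Slco1a4 without that array (-0.80 ± 0.22, adjusted p = 0.017), so neither fall was called in both cases. Gstm3 was called in neither case.

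Gsta3, an alpha-class glutathione transferase that conjugates aflatoxin epoxide in rodents, had levels of 7.48, 7.64 and 7.12 in NNK livers at day 7 and 8.63, 8.67 and 7.32 at day 14. In vehicle livers they were 5.82 to 7.47 (median 6.15) at day 7 and 5.79 to 6.35 (median 6.10) at day 14. At day 7 a pair of vehicle arrays overlapped the NNK arrays, and the change of 0.92 ± 0.44 was not called. At day 14 the groups were apart and Gsta3 was higher by 2.12 ± 0.44 (4.35-fold, adjusted p = 0.000253). Its change was not called as different between days (1.20 ± 0.63, adjusted p = 0.823).

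Among 32 measured genes of the NRF2 pathway, which switches on antioxidant and conjugating enzymes, 1 was higher at day 7 and 6 at day 14, with none lower. The share called higher over all genes was 0.269% at day 7 and 0.893% at day 14. The 6 were Gsta3, Gstm3, Abcc2, Ephx1, the sulfiredoxin Srxn1 (0.92 ± 0.16) and the aflatoxin aldehyde reductase Akr7a3 (1.09 ± 0.28). Of these, Ephx1, Abcc2 and Gstm3 are also on the CAR and PXR list. Other well known targets were not called, with the quinone reductase Nqo1 at -0.53 ± 0.44 and 0.28 ± 0.44, the haem oxygenase Hmox1 at -0.03 on both days and the glutamate-cysteine ligase subunit Gclc at 0.35 and 0.25. The list's median change was 0.14 at day 7 and 0.17 at day 14. It held 5 calls at day 14 with the vehicle pairs averaged, 4 without the array that carried pancreas transcripts and 3 with both. Gstm3 was called neither with the pairs averaged nor without that array (adjusted p = 0.117 and 0.168). Akr7a3 was not called without that array (0.90 ± 0.32, adjusted p = 0.107). The gene of the factor itself, Nfe2l2, named after its values were seen, was higher by 0.69 ± 0.18 and 0.92 ± 0.18.

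Genes that act on NNK itself included no called rise. Of 20 measured genes of NNK metabolism, 1 was lower at day 7 and 2 at day 14, and none was higher. Over all genes 0.182% were called lower at day 7 and 0.384% at day 14. The aldo-keto reductase Akr1c1, of a family whose human members reduce the NNK ketone, had levels of 7.07, 8.92 and 8.82 in NNK livers at day 7 against 9.17 to 9.74 in vehicle livers (median 9.41), and 7.36, 7.77 and 7.89 at day 14 against 8.30 to 9.54 (median 8.76). The groups did not overlap, but the NNK arrays of day 7 spread widely. Akr1c1 changed by -1.18 ± 0.31 at day 7 (2.27-fold lower, adjusted p = 0.0164) and by -1.21 ± 0.31 at day 14 (2.32-fold lower, adjusted p = 0.00447). It lost its day 7 call with the pairs averaged (adjusted p = 0.113) and its day 14 call without the array that carried pancreas transcripts (adjusted p = 0.0858). The second gene lower at day 14, Cyp3a23-3a1, was at -0.54 ± 0.16 without that array and under the fold threshold.

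The P450 enzymes of the same list were at -0.21 and -0.20 for Cyp2a1, -0.05 and -0.39 for Cyp2a2, 0.08 and 0.18 for Cyp2e1, and -0.31 and -0.23 for Cyp1a2 at days 7 and 14, none of them called. Hsd11b1, a carbonyl reductase that makes NNAL, changed by -0.34 and -0.13, and Cbr1 by -0.01 and 0.06. The glucuronosyltransferase Ugt2b1 was at 0.64 ± 0.27 and 0.74 ± 0.27, with adjusted p of 0.195 and 0.0676.

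**Figure D4:**
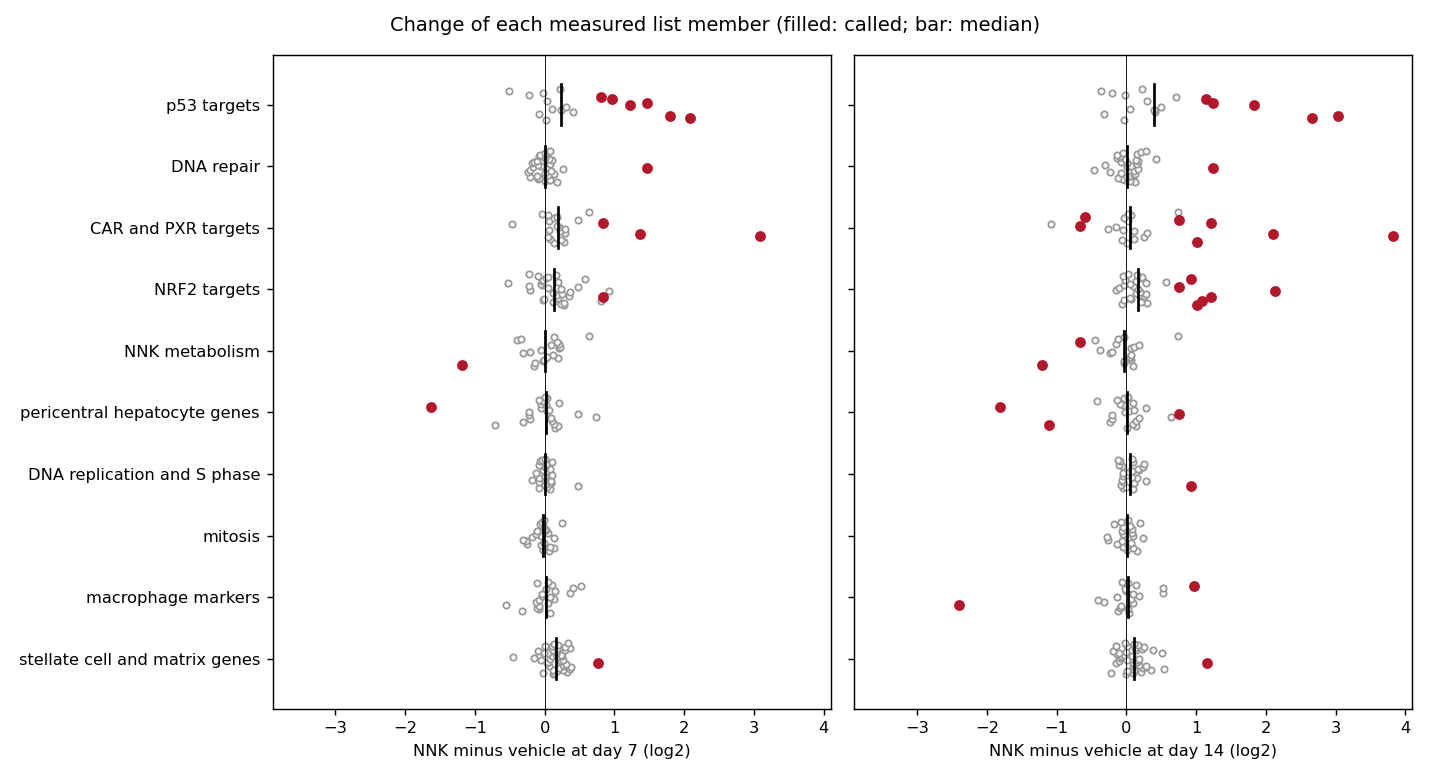
Change (NNK minus vehicle, log2) of each measured member of 10 gene lists at day 7 on the left and day 14 on the right, with called genes as filled points and the list's median as a black bar. The p53 list has 6 called members at day 7 and 5 at day 14, and the mitosis list none at either day.

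Inmt, an N-methyltransferase of indolamines and thioethers, had the largest fall. Its levels were 7.91, 8.71 and 9.31 in NNK livers at day 7, against 10.76 to 11.26 in vehicle livers (median 11.14), and 7.94, 7.88 and 7.47 at day 14, against 11.05 to 11.79 (median 11.47). All NNK arrays were far below all vehicle arrays. Inmt changed by -2.43 ± 0.44 at day 7 (5.41-fold lower, adjusted p = 3.94e-05) and by -3.66 ± 0.44 at day 14 (12.7-fold lower, adjusted p = 1.87e-12). Of 19 measured one-carbon and methyl group enzymes it was the only one called.

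Oat, ornithine aminotransferase of the hepatocytes around the central vein, was at 10.51, 10.57 and 11.21 in NNK livers at day 7 against 12.13 to 12.64 in vehicle livers (median 12.40), and at 10.89, 9.89 and 10.73 at day 14 against 12.22 to 12.42 (median 12.28). The groups were apart on both days. Oat changed by -1.62 ± 0.29 and -1.81 ± 0.29. The vasopressin receptor Avpr1a, also of pericentral hepatocytes, was lower at day 14 (-1.11 ± 0.26) but not called at day 7 (-0.71 ± 0.26), and its call was lost without the array that carried pancreas transcripts (-0.69 ± 0.30, adjusted p = 0.234). Of the 23 measured genes on the pericentral list, 1 was lower at day 7, and 2 were lower and 1 (Gstm3) higher at day 14, where only Oat stayed called without the array that carried pancreas transcripts. The list's median change was 0.02 and 0.01.

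The other falls of day 7 were smaller, and most of them were not called with the vehicle pairs averaged. The complement gene C8b (-1.32 ± 0.35), the interferon-induced antiviral gene Rsad2 (-0.91 ± 0.26), the transcriptional coregulator Cited2 (-0.82 ± 0.23), the sulfur dioxygenase Ethe1 (-0.75 ± 0.21), the glucocorticoid receptor Nr3c1 (-0.72 ± 0.18) and the pyrimidine-degrading dehydrogenase Dpyd (-0.63 ± 0.16) all lost their day 7 calls with the vehicle pairs averaged, with adjusted p between 0.0868 and 0.167. Of the falls the naming rule took at day 7, Inmt, Oat and the mitochondrial ribosome gene Mrpl52 (-0.64 ± 0.14) kept theirs, though a second probe set of Mrpl52 was at 0.11. Second probe sets of Nr3c1 and Cited2 were at -0.13 and -0.75, neither called. Dpyd was also lower at day 14 (-0.85 ± 0.16), there with the pairs averaged too (adjusted p = 0.00171). Nr3c1 was likewise called lower at day 14 (-0.72 ± 0.18), also with the pairs averaged (adjusted p = 0.0276). Its day 14 call was lost without the array that carried pancreas transcripts (adjusted p = 0.0934).

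Cd14, the co-receptor for bacterial lipopolysaccharide on macrophages, which hepatocytes also make, had the largest difference between the days among the called probe sets. Its levels were 10.49, 10.50 and 10.46 in NNK livers at day 7, against 10.86 to 11.40 in vehicle livers (median 10.98). At day 14 they were 8.87, 9.28 and 8.19 in NNK livers, against 11.02 to 11.39 in vehicle livers (median 11.16). The groups were apart on both days, by less than 1.5-fold at day 7. The change of -0.55 ± 0.17 at day 7 was under the fold threshold, and the change of -2.40 ± 0.17 at day 14 (5.26-fold lower) had an adjusted p of 8.09e-32. The difference between the days, -1.84 ± 0.24, passed the test (adjusted p = 2.42e-09), also with the pairs averaged (adjusted p = 2.1e-06) and without the array that carried pancreas transcripts (adjusted p = 3.29e-08).

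Other macrophage genes did not move with Cd14. Of 21 measured macrophage markers none was called at day 7, and at day 14 Cd14 was the only one lower and the lysozyme Lyz2 (0.98 ± 0.28) the only one higher. Lyz2 was not called with the pairs averaged (adjusted p = 0.0692) or without the array that carried pancreas transcripts (adjusted p = 0.166). The list's mean level was 7.84 to 8.12 on NNK arrays and 7.99 to 8.11 on vehicle arrays at day 14. Il33, an alarmin of the interleukin family, was lower at day 14 (-0.97 ± 0.23), with a second probe set at -0.69 ± 0.19.

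In all, 4 of 15866 probe sets were called as changing differently at day 14 than at day 7 (0.0252%), 3 upwards and 1 downwards, and 957 had an unadjusted p below 0.05. Beside Cd14 they were Lama5, Nrcam and Pln. The laminin chain Lama5, of basement membranes, had levels of 7.89, 7.70 and 7.22 in NNK livers at day 7 against 6.34 to 6.61 in vehicle livers (median 6.51), and 8.61, 8.31 and 9.03 at day 14 against 6.37 to 6.67 (median 6.54). Its rise was 1.12 ± 0.14 at day 7 and 2.12 ± 0.14 at day 14, a difference of 1.01 ± 0.20 (adjusted p = 0.00584) that was not called with the pairs averaged (adjusted p = 0.145). The count of 4 was 26 without NNK array 2 of day 14, 23 without array 3 and 3 without array 1. A dimmer probe set of Lama5 was at 0.08 and -0.05 at days 7 and 14, so the rise rests on 1 of its probe sets.

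The cell adhesion gene Nrcam and the calcium pump regulator Pln were called on probe sets that do not stand for their gene in the counts above, and are named after their values were seen. Nrcam was at 6.00, 5.63 and 5.93 in NNK livers at day 7 against 5.47 to 5.69 in vehicle livers, and at 6.55, 6.65 and 6.70 at day 14 against 5.47 to 5.68. Its difference between days was 0.78 ± 0.14 (adjusted p = 0.000944, and 0.0315 with the pairs averaged). Pln was at 5.58, 5.23 and 5.37 in NNK livers at day 7 against 4.82 to 4.95 in vehicle livers, and at 6.48, 6.50 and 6.56 at day 14 against 4.81 to 5.02. The difference of 1.06 ± 0.23 (adjusted p = 0.0359) was not called with the pairs averaged (adjusted p = 0.599). The vehicle groups themselves differed between the days in 18 probe sets, and in none with the pairs averaged (1101 had an unadjusted p below 0.05 in the main model).

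Of the remaining genes called at both days, the vacuolar ATPase subunit Atp6v1d rose by 1.01 ± 0.12 and 1.74 ± 0.12, and Vxn (vexin) by 1.28 ± 0.16 and 1.73 ± 0.16. The stress cytokine Gdf15, named after its values were seen, was higher by 0.61 ± 0.12 and 0.95 ± 0.12. Decorin (Dcn), a matrix proteoglycan, was the only called gene among 41 measured genes of stellate cells and matrix, with 0.77 ± 0.23 and 1.15 ± 0.23, and was not called at day 7 with the pairs averaged (adjusted p = 0.218). The steroid hydroxylase Cyp2c12, which is female-predominant in rat liver, was at 1.12 ± 0.42 at day 7 (not called) and rose by 1.58 ± 0.42 at day 14. It was the only called gene of 25 measured genes with a sex or growth hormone pattern.

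A few other lists held called genes. The hepatocyte transcription factor Hnf4a was lower at day 7 (-0.61 ± 0.14) and not called at day 14 (-0.39 ± 0.14), and a second probe set was at -0.31 and -0.15, not called. Among 37 PPARA targets the carnitine acetyltransferase Crat was the only one called, at day 7 (0.61 ± 0.18), and was not called there with the pairs averaged (adjusted p = 0.171). The epithelial adhesion gene Epcam, of bile duct and progenitor cells, was called at day 14 (0.72 ± 0.22), but not with the pairs averaged (adjusted p = 0.0896) or without the array that carried pancreas transcripts (adjusted p = 0.0517). The fatty acid binding protein Fabp4 of adipose tissue, called at day 14 (0.90 ± 0.25), was likewise not called in either case (adjusted p = 0.0629 and 0.12). Of 22 genes of bile acid synthesis and transport, Abcc2 was higher and Slco1a4 and the bile acid CoA ligase Slc27a5 (-0.76 ± 0.22) were lower at day 14, Slco1a4 was not called with the pairs averaged (adjusted p = 0.115), and Slc27a5 was called neither with the pairs averaged (adjusted p = 0.0784) nor without that array (adjusted p = 0.0535). Of 38 lists, 19 had no called member at either day, among them periportal hepatocyte genes (24 measured), cholesterol synthesis (19) and interferon gamma with antigen presentation (22). At the share called over all genes (0.451% at day 7 and 1.28% at day 14), a list of this size often has none.

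Some rises of day 14 came from the array that carried pancreas transcripts. The 15 exocrine genes called higher, among them Amy2a3 (2.09 ± 0.48), the elastase Cela2a (1.83 ± 0.36), the chymotrypsinogen Ctrb1 (1.79 ± 0.36) and the lipase Pnlip (1.31 ± 0.29), exceeded on that array the highest of the 17 other arrays by 1.56 to 6.17. Without it, Amy2a3 was at -0.01 ± 0.50. Rnase1l2, a pancreatic-type ribonuclease, was at 9.62 on that array and at 6.49 and 6.35 on the other NNK arrays of day 14, against 6.17 to 6.26 on vehicle arrays. Without that array its change was 0.21 ± 0.28 and not called. The serine protease Prss3b, not on the exocrine list and named after its values were seen, was called higher at day 14 (1.52 ± 0.36). It was at 11.16 on that array and at 5.99 and 5.91 on the other NNK arrays of day 14 (vehicle mean 6.16). Falls named at day 14 that lost their call without it, with 2 NNK arrays left, included Akr1c1, Avpr1a, Il33, Nr3c1, the lipid kinase Pik3c2g and the sulfide oxidoreductase Sqor. The sulfotransferase Sult2a6, the acyl-CoA synthetase Acsm3, Thumpd1, the NAD-synthesising enzyme Nampt, Slc27a5 and Cyp3a23-3a1 lost theirs too.

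NPip was given at the same dose and on the same days, with its own vehicle arrays. P-values of all differences were adjusted over all probe sets. At day 14, 6 of 15866 probe sets were called (0.0378%; 1647 had an unadjusted p below 0.05), 4 with a higher and 2 with a lower change under NNK. Cd14 had levels of 8.87, 9.28 and 8.19 in NNK livers and 10.06, 9.77 and 9.93 in NPip livers, with no overlap. Its change of -2.40 ± 0.17 under NNK and -1.23 ± 0.19 under NPip differed by -1.17 ± 0.26 (95% interval -1.67 to -0.66, adjusted p = 0.0175). The other called probe sets were Cadps2 (0.75 ± 0.17), Pcp4l1 (-1.02 ± 0.21), the transcription factor Maf (0.64), Nrcam (0.66) and 1 probe set with no listed gene, of which Maf and Nrcam are named after their values were seen. With the pairs averaged, Pcp4l1, Maf and the unnamed probe set remained. Without the array that carried pancreas transcripts 3 were called, Cd14 (-1.22), Pcp4l1 (-1.08) and Avpr1a (1.93).

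The p53 targets did not differ between NNK and NPip by a called amount at day 14. The change of Cdkn1a was 3.03 ± 0.27 under NNK and 2.46 ± 0.31 under NPip, a difference with a 95% interval of -0.24 to 1.39. For Ccng1 it was 2.66 ± 0.15 and 2.52 ± 0.17 (interval -0.32 to 0.59), for Mdm2 1.82 ± 0.16 and 2.10 ± 0.18 (-0.76 to 0.20), and for Mgmt 1.24 ± 0.20 and 1.22 ± 0.23 (-0.58 to 0.62). These intervals include 0 and do not show that the compounds act alike. The reductase Akr1c1 (-1.21 ± 0.31 under NNK, -2.61 ± 0.36 under NPip) and Avpr1a (-1.11 ± 0.26 under NNK, -2.62 ± 0.30 under NPip) had intervals of 0.47 to 2.33 and 0.72 to 2.30 for the difference, with adjusted p of 0.214 and 0.0755 over all probe sets.

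At day 7, 111 probe sets were called between NNK and NPip (0.70%), 109 of them lower under NNK. These rested on array 3 of NPip, which carried transcripts of muscle and squamous epithelium. The keratin Krt13 was at 13.21 there against 5.69 on the other 2 NPip arrays and at most 5.86 on NNK arrays. The exocrine pancreas gene Ctrb1 was also raised on NPip arrays 3 and 2, at 8.63 and 6.74 against 5.96 on array 1. With array 3 left out, 1 probe set was called, the dimmer one of Cdkn1a (-2.46, adjusted p = 0.0205), while the brighter one gave -1.20 ± 0.44 (adjusted p = 0.441). The rises of Rb1 (1.03 ± 0.22) and Rnd3 (0.85 ± 0.24) under NNK relative to NPip were not called without that array (adjusted p = 0.147 and 0.25).

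NNM was given at 3.5 mg/kg, so its values at day 7 are set beside those of NNK with no comparison, and both share their vehicle arrays. Cdkn1a was at 1.80 ± 0.27 under NNK and 2.37 ± 0.27 under NNM, Aldh1a1 at 3.09 ± 0.40 under NNK and 3.48 ± 0.40 under NNM, and Mgmt at 1.46 ± 0.20 under NNK and 0.53 ± 0.20 under NNM, which was not called. Inmt was at -2.43 ± 0.44 under NNK and -3.17 ± 0.44 under NNM, and Avpr1a at -0.71 ± 0.26 under NNK and -2.31 ± 0.26 under NNM.

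**Figure D5:**
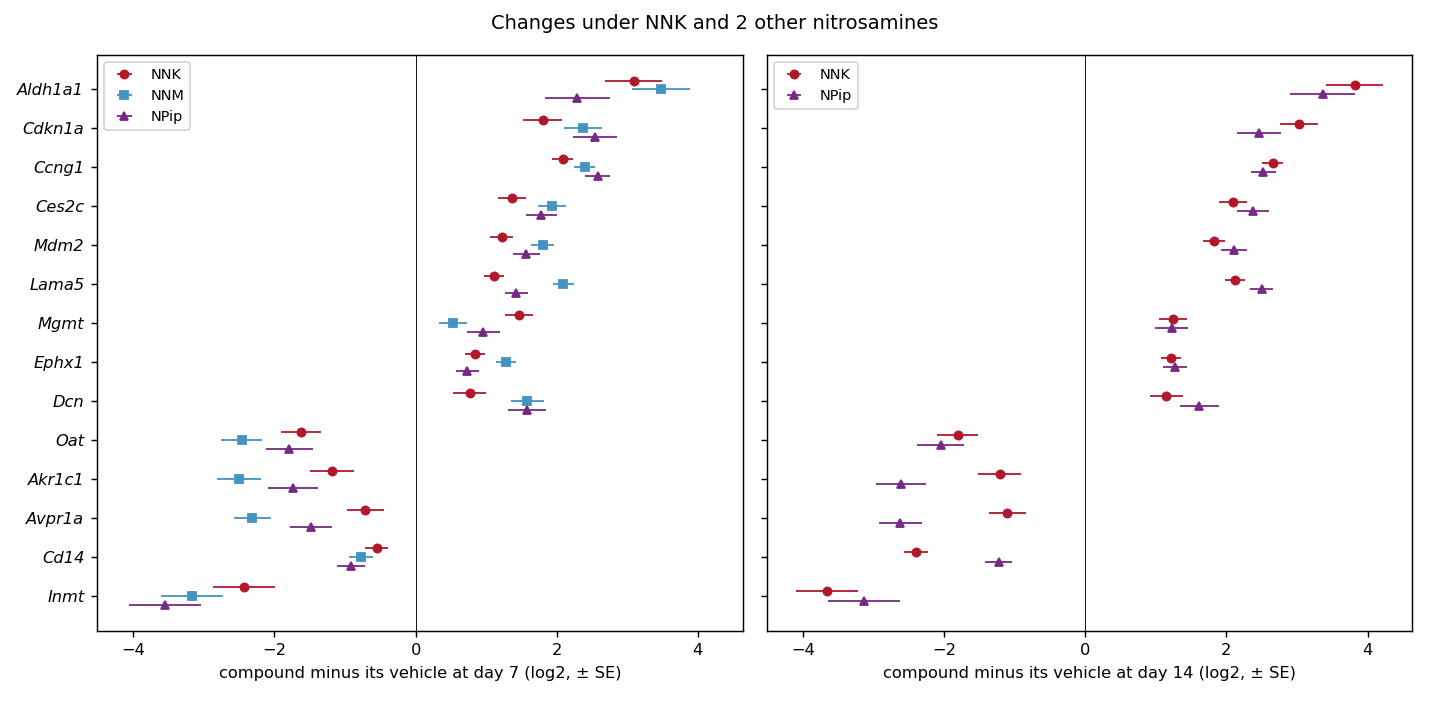
Change (log2, compound minus its vehicle, ± SE) of 14 genes under NNK, NNM (3.5 mg/kg) and NPip at day 7 on the left and under NNK and NPip at day 14 on the right. At day 14 Cd14 lies at -2.40 under NNK and -1.23 under NPip, while Cdkn1a, Ccng1 and Mdm2 have 95% intervals of the difference that include 0.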

How the data were processed

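Livers were profiled on Affymetrix RAE230A arrays. The deposited table holds log2 values per probe set that the authors made with RMA, which corrects the background, normalizes between arrays and summarises probes; the sources used here give no version. It held 15866 probe sets on 421 arrays, with array medians of 7.38 to 7.49. Arrays have no read depth, so the number of arrays limits the precision. Symbols came from the platform's probe table and a table of current rat genes: 12783 probe sets had 1 symbol, 312 several and 2771 none listed. Where a gene had several probe sets the brightest one on average was used, giving 10411 genes.

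Groups came from the labels. Contrasts were fitted in R 4.3.3 with limma 3.58.1, 1 mean per group over all 421 arrays (285 residual and 4.67 prior degrees of freedom), and Benjamini-Hochberg adjustment over all probe sets. Because the spread is shared over all groups, the SE understates that of a gene whose NNK animals differ widely. P-values rest on the spread between arrays within groups, pooled over the whole series, and not on that of the NNK and vehicle arrays alone. Lists are described by counts and medians, with no test. Counts of called members stand beside 0.451% of all genes called at day 7 and 1.28% at day 14.

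The members and gene lists were chosen with earlier results of these data known. The genes named were the 15 largest rises and falls per day among called genes whose groups did not overlap, the 10 largest in each direction of the other contrasts (or the 10 with the smallest p where fewer than 3 were called), and list members. The text describes a choice of these.

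On simulated data for NNK day 14 over 15866 probe sets, 99 of 100 probe sets changed 2-fold were recovered, and 100 of 100 changed 4-fold. Of the unchanged ones 0 were called. The simulated noise was independent between arrays with 1 SD per probe set, and held no vehicle pairs and no array with another tissue. The result does not cover those features of the real arrays. As alternatives, only the compared groups were fitted, values were quantile normalized, probe sets with a mean under 6 were dropped, the replicate number was blocked, an intensity trend was allowed, the fold threshold was dropped, vehicle arrays 1 to 3 or 4 to 6 were used alone, the most variable probe set stood for a gene, and each array was left out. Averaging vehicle pairs, leaving out NPip arrays, and averaging pairs together with leaving out 1 array were added after seeing the data. Replicate numbers were not taken as pairs, since same-numbered arrays deviated with correlations of -0.20 to 0.03. Plots used matplotlib 3.10.9 under Python 3.11.15.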

Additional observations from a re-analysis of the deposited data

Results flagged for a closer look

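The change under NNK differed between day 14 and day 7 by a test of the difference itself (limma, adjusted over all probe sets) for Cd14 (-1.84), Pln (1.06), Nrcam (0.78) and Lama5 (1.01). Cd14 and Nrcam kept this call with the vehicle pairs averaged, Pln and Lama5 did not.

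In the 6 vehicle arrays of day 14, 1 array lay far from the others for 4 of the named genes. Cyp2c12 had its lowest vehicle array at 8.02 (next 8.35), Mgmt at 7.99 (next 8.32) and Dpyd at 10.33 (next 10.60), and Slc16a10 had its highest at 7.99 (next 7.65). In all, 60 sets of 6 vehicle values were checked, each 1 named gene on 1 day, of which 4 were marked in this way, and chance marks about 5%.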

How the results depend on the processing

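The vehicle pairs and single arrays limit the day 7 falls and the day 14 falls most, and 3 NNK arrays per day limit every value. Counts of called probe sets that changed by over 1.5 times are given here, and the cause was not tested unless named. With no fold threshold, NNK called 362 probe sets at day 7 and 1074 at day 14, NNK against NPip 193 at day 7 and 11 at day 14, and the vehicle between days 50. With the pairs averaged, the counts were 34 at day 7, 2 for the difference between days, 3 for NPip at day 14 and 0 for the vehicle between days, and with NNK array 1 of day 14 also left out 99 at day 14 (main 185). Only vehicle arrays 4 to 6 gave 38 at day 7. Fitting only the compared groups gave 13 for the difference between days, and 0 at day 7 and 3 at day 14 for NPip. The filter at a mean of 6 gave 2 for the difference between days and 67 for NPip at day 7.

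The replicate number as a block gave 66 and 186 calls for NNK at days 7 and 14, 2 for the difference between days, and 120 and 11 for NPip at days 7 and 14. Leaving out each array in turn gave 33 to 77 calls at day 7, 126 to 194 at day 14, 2 to 26 for the difference between days (26 without NNK array 2 of day 14 and 23 without array 3), 1 to 231 and 0 to 30 for NPip at days 7 and 14, and 9 to 17 for the vehicle between days. With each NPip array of day 7 left out, the NNK against NPip difference ran from -3.695 to 0.06599 for Krt13, -2.955 to 0.06209 for Krt4 and -2.825 to 0.01583 for Ckm, and it turned positive without array 3, which carried their transcripts. Over 77 results of single genes and 1484 alternative values, 1289 kept their call, 192 lost it and 3 turned, and 32 results kept it throughout.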
